A study of Mus musculus with 7 samples.

Results

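The visual cycle was followed across the cell types of the retina by 10 genes, which were taken from the count table by their symbols and are all among the 20128 genes tested of 52550 in the table. Expression was measured by total RNA-seq in 7 mice of 12.5 weeks on a C57BL/6J background. The 4 WT mice were compared with 3 SCA7 KI mice (SCA7_KI_homo in the library titles, SCA7 hereafter), which are homozygous for a knock-in of an expanded CAG repeat in exon 1 of *Atxn7* that is expressed from the gene's own promoter in every tissue that uses it. The labels name no treatment, and each library held the 2 retinas of 1 mouse. The mutation is therefore not restricted to a cell type, and the libraries are of whole retina with whatever pigment epithelium stayed attached to it.

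The visual cycle is the set of reactions that restores 11-cis retinal after light has turned it into all-trans retinal. In photoreceptors ABCA4 moves the retinal out of the lumen of the outer segment discs, and the dehydrogenases RDH8, RDH11 and RDH12 reduce it to retinol. IRBP, encoded by *Rbp3*, is made by photoreceptors and carries retinoids across the space to the retinal pigment epithelium, where LRAT forms retinyl esters, RPE65 isomerises them and RDH5 oxidises the product to 11-cis retinal. CRALBP, encoded by *Rlbp1*, binds 11-cis retinoids in Müller glia and in the pigment epithelium, and RGR is an opsin of intracellular membranes in both. The genes were grouped by the cell known to be their main source, with *Rlbp1* under Müller glia and *Rgr* under the pigment epithelium.

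In SCA7 retina the pigment epithelium gene *Rgr* fell by 91.6%, *Lrat* fell by 89.2%, *Rpe65* fell by 79.5% and *Rdh5* fell by 64.7%, and all 4 passed the test. Among the photoreceptor dehydrogenase genes *Rdh12* fell by 56.9% and *Rdh8* fell by 36.2%. *Abca4* and *Rbp3* differed by -24.5% and -17.8%, which is short of the fold change required for a call. *Rdh11* and *Rlbp1* differed by -5.53% and -8.32%, less than the test could separate from 0. Of 10 markers of the pigment epithelium, *Slc16a8* was downregulated, the melanin gene *Slc45a2* was upregulated and 8 were neither.

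Total counts per library lay between 56497675 and 96635832 with a median of 67140118, so that 1 count was worth 0.00972 to 0.0188 CPM (the level used here unless stated, scaled to library size with TMM factors). The least covered of the 10 genes in any library, *Lrat* in SCA7 replicate 3, still had 95 counts, and counting error was small beside the spread between mice. As the knock-in leaves the gene transcribed, the level of *Atxn7* gives no check of the labels, and it was 33.7 to 43.7 CPM in WT and 34.2 to 39.9 CPM in SCA7 (log2 fold change -0.06, SE 0.09, adjusted p = 0.64 by edgeR). The tissue label was borne out by 10 rod markers, which summed to 63300 to 65114 CPM in WT. In SCA7 they summed to 17060 to 22135 CPM and all 10 fell, with a median log2 fold change of -1.14. All 9 cone markers fell as well, from 1449 to 1727 CPM in sum to 263 to 289 CPM. The markers of Müller glia summed to 5432 to 6217 CPM in WT and 6055 to 6407 CPM in SCA7. By their fitted values 8 of the 10 were higher and 2 lower, and 3 passed the call for upregulation given below. In 7 of the 10 every SCA7 library lay above every WT library, which was so for 19.3% of all genes tested. In these bulk libraries fewer cells of a type and less RNA per cell cannot be told apart.

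Calls were made by the quasi-likelihood test of edgeR and needed an adjusted p under 0.05, with a fold change (FC, SCA7 over WT) under 0.7 for downregulated and above 1.3 for upregulated genes. By this rule 6 of the 10 visual cycle genes were downregulated, none was upregulated and 4 were neither. Among all genes tested, 7.91% were downregulated and 7.47% upregulated. The 10 genes had a median log2 fold change of -0.93, against -0.02 for all genes tested, and each was lower in SCA7 by its fitted value. In 7 of them every SCA7 library lay below every WT library, which was so for 18.3% of all genes tested, and in 3 the groups overlapped. No gene lay above WT in every SCA7 library, as 19.3% of all genes tested did.

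**Figure D1:**
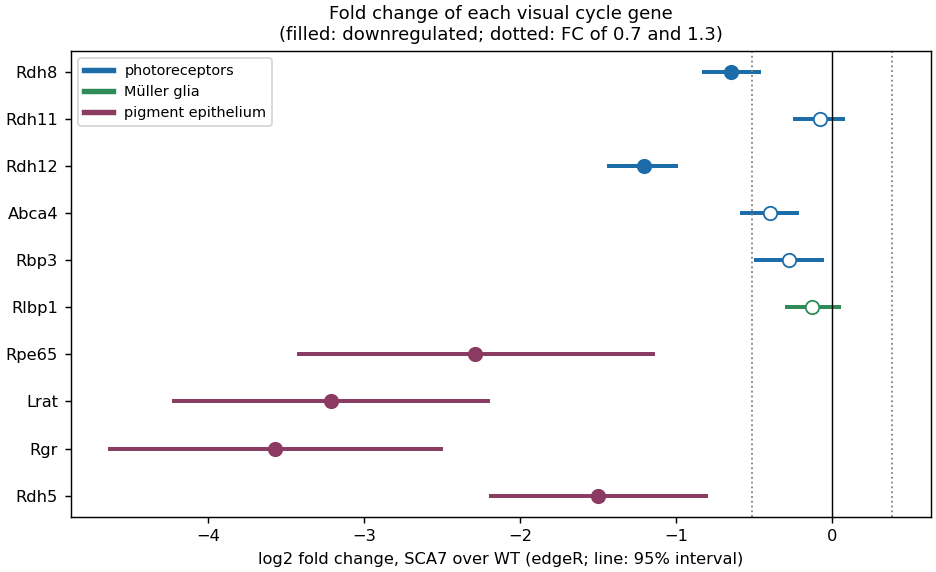
Log2 fold change (SCA7 over WT) of the 10 visual cycle genes with the 95% interval of the fit, coloured by cell of origin, with filled points for downregulated genes and dotted lines at FC 0.7 and 1.3. The 4 pigment epithelium genes lie between -1.50 and -3.57, *Rdh12* at -1.21 and *Rdh8* at -0.65, and the intervals of *Rdh11* and *Rlbp1* include 0.

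*Rpe65* (ENSMUSG00000028174, chr3:159599175-159625321, GRCm38, + strand) encodes the isomerase of the cycle and is the gene that defines the pathway in the pigment epithelium. Its level was 24.1, 22.5, 10.6 and 27.3 CPM in WT replicates 1 to 4 and 6.13, 4.49 and 2.58 CPM in SCA7 replicates 1 to 3. The lowest WT library, replicate 3, was still above the highest SCA7 library. The mean fell from 21.1 ± 7.29 (SD, n = 4) to 4.4 ± 1.78 CPM (SD, n = 3). This is -2.29 on the log2 scale (SE 0.46, 95% interval -3.42 to -1.15, adjusted p = 0.016 by edgeR). Without SCA7 replicate 2 the log2 fold change was -2.31 and the adjusted p 0.064, so the call was lost, and over the 7 fits that each leave out a library the adjusted p ran from 0.0074 to 0.064.

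*Lrat* (ENSMUSG00000028003, chr3:82892579-82903973, - strand), whose product makes the retinyl esters that RPE65 uses, had 16.4, 18.6, 8.21 and 11.8 CPM in the WT libraries. In the SCA7 libraries it had 2.1, 1.55 and 0.923 CPM, or 95 to 132 counts. The means were 13.8 ± 4.67 and 1.52 ± 0.587 CPM, and the 9.28-fold difference (log2 -3.21, SE 0.41, 95% interval -4.22 to -2.21) had an adjusted p of 0.0022 by edgeR. The groups were far apart, as the lowest WT library had 8.21 CPM and the highest SCA7 library 2.1 CPM. The antisense gene *Rbm46os* runs over the locus but shares 0 exon bases with *Lrat* and had 1 to 8 counts per library.

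*Rgr* (ENSMUSG00000021804, chr14:37034909-37048964, - strand) encodes the retinal G protein-coupled receptor, an opsin that binds all-trans retinal. It had 81.2, 82.7, 40.0 and 80.0 CPM in WT and 8.24, 6.26 and 3.70 CPM in SCA7. The means were 71.0 ± 20.7 and 6.07 ± 2.27 CPM, an 11.9-fold difference that was the largest of the 10 genes (log2 -3.57, SE 0.42, 95% interval -4.63 to -2.51, adjusted p = 0.0024 by edgeR). WT replicate 3 stood apart from the other WT libraries, yet held more than any SCA7 library.

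*Rdh5* (ENSMUSG00000025350, chr10:128913593-128922888, - strand), the 11-cis retinol dehydrogenase gene, had 16.2, 16.8, 8.91 and 14 CPM in WT and 6.05, 5.58 and 3.33 CPM in SCA7. The means were 14 ± 3.59 and 4.99 ± 1.45 CPM, with a log2 fold change of -1.50 (SE 0.29, 95% interval -2.19 to -0.81) and an adjusted p of 0.0093 by edgeR. The decrease was the smallest of the 4 pigment epithelium genes. Its value is uncertain, since 720 of its exon bases also belong to *Bloc1s1* on the same strand, so that the assignment of reads to either gene depends on the counting. *Bloc1s1* had 1145 to 1381 counts in WT and 1481 to 2543 in SCA7, with a log2 fold change of 0.29 (adjusted p = 0.084 by edgeR).

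The 4 pigment epithelium genes shared their lowest library in each group. WT replicate 3 had 43.0% of the mean of the other WT libraries for *Rpe65*, 52.6% for *Lrat*, 49.2% for *Rgr* and 56.8% for *Rdh5*. SCA7 replicate 3 was the lowest SCA7 library for all 4. Of the 10 markers of the epithelium, 4 were also lowest in WT replicate 3 (*Slc16a8*, *Tyrp1*, *Tyr* and *Oca2*), and over the list this library had 53.5% (*Oca2*) to 114% (*Mitf*) of the mean of the other WT libraries. SCA7 replicate 3 was the lowest SCA7 library for 9 of the 10 markers (all but *Mitf*). The order of the other WT libraries was not shared, as WT replicate 4 had 129% of the WT mean for *Rpe65* and 85.7% for *Lrat*. Summed over the 4 genes the level was 138, 141, 67.7 and 133 CPM in WT and 22.5, 17.9 and 10.5 CPM in SCA7. Within WT the coefficient of variation was 25.6% to 34.5% for these genes and 6.18% to 11.5% for the other 6. With both libraries numbered 3 left out, a choice made after seeing the data, the log2 fold changes were -2.22 for *Rpe65*, -3.11 for *Lrat*, -3.50 for *Rgr* and -1.43 for *Rdh5*, and all 4 remained downregulated.

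**Figure D2:**
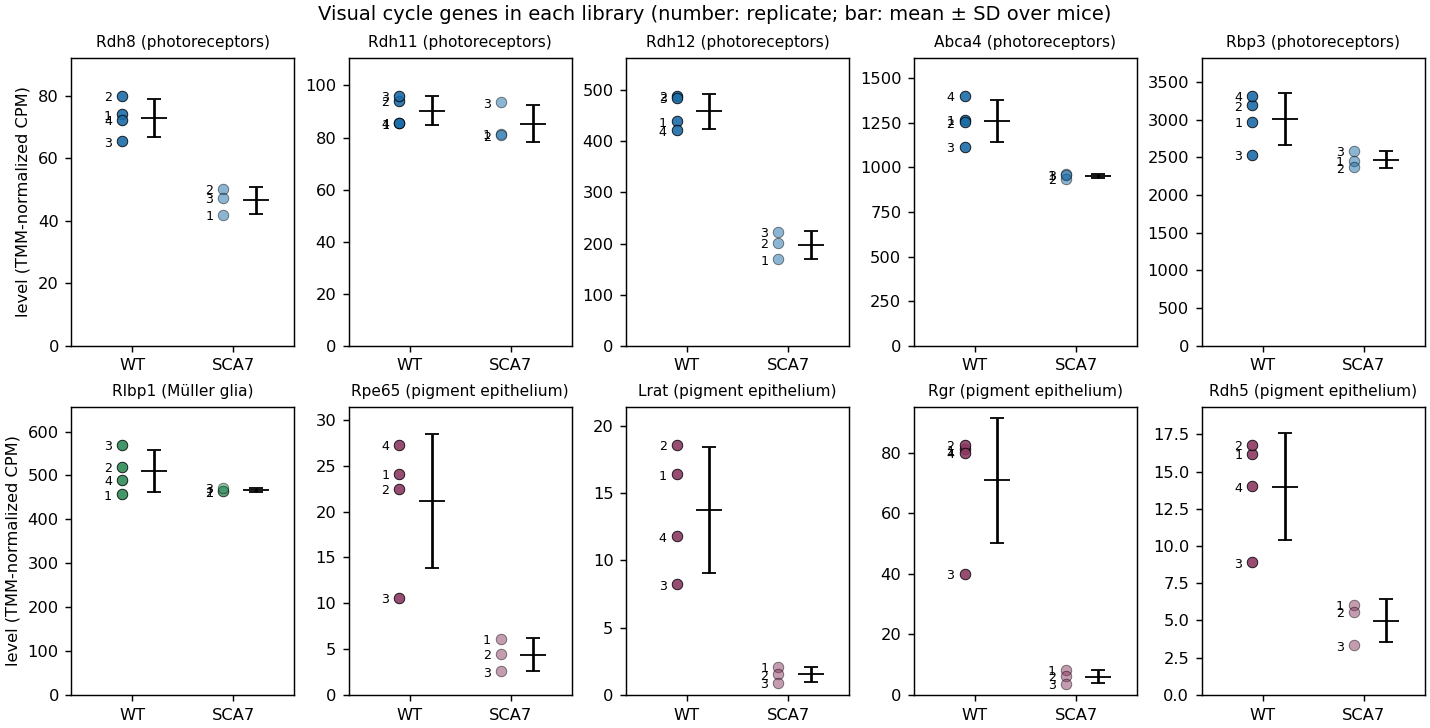
Level (TMM-normalized CPM) of each visual cycle gene in every library, as numbered points for the replicates, with a bar for the mean ± SD of the 4 WT and 3 SCA7 mice. The pigment epithelium genes separate the groups completely but spread within them, with WT replicate 3 lowest among the WT libraries, whereas *Rdh11*, *Rbp3* and *Rlbp1* overlap between the groups.

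The sequences before the RefSeq start sites of *Rpe65*, *Lrat* and *Rgr* are shown because these genes fell together and most strongly. They are the 250 bases before the start, 5′ to 3′ on the strand of the gene, from RefSeq on GRCm38.p6. Capitals mark whole matches on either strand to TAATCC (core letters of CRX and OTX2 sites), TGCTGA (letters of the NRL site) or CATGTG (letters of an MITF site).
Rpe65, chr3:159598931-159599180, + strand: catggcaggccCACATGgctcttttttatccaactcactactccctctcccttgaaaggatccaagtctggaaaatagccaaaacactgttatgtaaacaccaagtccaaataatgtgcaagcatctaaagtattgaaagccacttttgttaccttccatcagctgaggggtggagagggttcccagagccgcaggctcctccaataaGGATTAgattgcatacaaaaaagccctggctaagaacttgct
Lrat, chr3:82903975-82904224, - strand: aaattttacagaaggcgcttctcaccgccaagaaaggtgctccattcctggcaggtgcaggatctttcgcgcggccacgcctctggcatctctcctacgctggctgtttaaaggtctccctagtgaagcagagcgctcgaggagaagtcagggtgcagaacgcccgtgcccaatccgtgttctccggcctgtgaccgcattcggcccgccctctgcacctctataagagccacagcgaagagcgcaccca
Rgr, chr14:37049015-37049264, - strand: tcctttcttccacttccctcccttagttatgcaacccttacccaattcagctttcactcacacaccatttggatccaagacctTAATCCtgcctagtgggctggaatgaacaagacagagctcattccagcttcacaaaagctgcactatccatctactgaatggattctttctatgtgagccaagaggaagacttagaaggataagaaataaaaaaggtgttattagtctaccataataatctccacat
*Rpe65* holds TAATCC on the reverse strand, beginning 42 bases before the start, and CATGTG on the reverse strand at 239 bases. *Rgr* holds TAATCC at 167 bases, and a reverse CATGTG match that begins 5 bases before the start and crosses it is not in capitals. *Lrat* held none of the 3 strings. In windows of 300 bases (250 before and 50 after the start), TAATCC was in 7.06% of 32851 promoters, TGCTGA in 19.5% and CATGTG in 14.2%. All 10 genes were matched, with 11 promoters, and each string was in 4 of them. Beside *Rpe65* and *Rgr*, TAATCC was in *Abca4* (58 bases before the start) and *Rbp3* (69 bases), and *Rdh5* and *Rdh11* had no match to any string. No match overlapped another. These are matches of letters, and binding was not measured here.

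The 10 markers of the pigment epithelium did not show a common change. Of these, 1 was downregulated, 1 was upregulated and 8 were neither, with a median log2 fold change of 0.05 (all genes tested, -0.02). *Slc16a8*, the lactate transporter gene of this epithelium, fell from 5.07 ± 1.31 to 1.85 ± 0.894 CPM (log2 -1.49, SE 0.39, adjusted p = 0.027 by edgeR), with every SCA7 library below every WT library. Its call was lost without WT replicate 4 (adjusted p = 0.075), without SCA7 replicate 2 (0.079) and with no filter on low counts (0.099). *Slc45a2*, a melanosome transporter gene, was called upregulated at 0.293 ± 0.0785 and 0.682 ± 0.330 CPM (log2 1.17, adjusted p = 0.036 by edgeR), although SCA7 replicate 3 at 0.301 CPM lay among the WT libraries. This call was lost with limma-voom (adjusted p = 0.12) and without WT replicate 1 (0.10), WT replicate 2 (0.062), WT replicate 3 (0.065), SCA7 replicate 1 (0.14) or SCA7 replicate 2 (0.15). The pigment enzyme genes *Tyrp1*, *Tyr* and *Dct* had log2 fold changes of 0.51, 0.14 and -0.54 (adjusted p 0.49, 0.81 and 0.32). The melanosome genes *Pmel*, *Mlana* and *Oca2* had -0.90, 0.56 and -0.40 (adjusted p 0.25, 0.43 and 0.42), and the pigment cell regulator *Mitf* had 0.02 (adjusted p 0.92). *Best1*, a channel gene that defines the epithelium, was near 0 in both groups at 0.638 ± 0.117 and 0.678 ± 0.0908 CPM.

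The summed level of the marker list was 41.7, 68.0, 41.0 and 43.9 CPM in WT and 47.7, 47.5 and 25.5 CPM in SCA7. The groups overlapped, and SCA7 replicates 1 and 2 were above 3 of the 4 WT libraries. The largest parts of this sum in WT were *Dct* and *Mitf*, with means of 16.1 and 8.75 CPM. The 4 visual cycle genes of the epithelium summed to 67.7 to 141 CPM in WT and 10.5 to 22.5 CPM in SCA7, without overlap. Markers of choroid and sclera, tissues that adhere to the epithelium, summed to 16.3 to 23.8 CPM in WT and 13.2 to 22.3 CPM in SCA7, and 0 of 6 were called. The part of the attached tissue in these results was not tested, and some melanin genes are also expressed by melanocytes of the choroid.

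**Figure D3:**
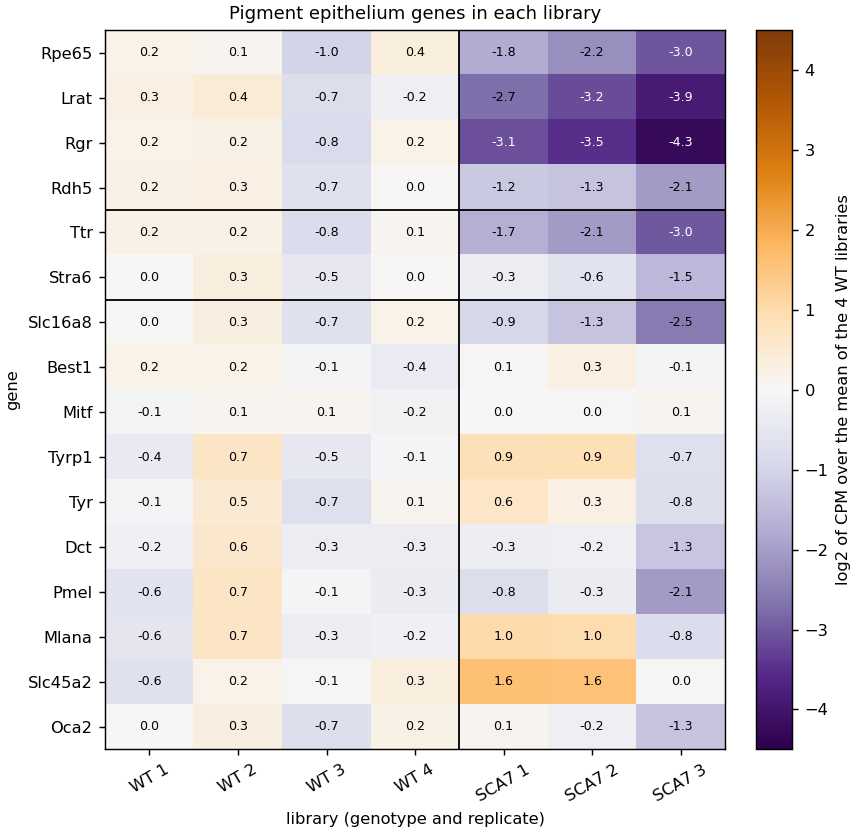
Log2 of CPM over the mean of the 4 WT libraries for the visual cycle genes of the pigment epithelium (top), *Ttr* and *Stra6* (middle) and the 10 marker genes (bottom), with 1 column per library. The top rows, *Ttr*, *Stra6*, *Slc16a8*, *Dct* and *Pmel* are negative in all 3 SCA7 libraries, of which *Stra6*, *Dct* and *Pmel* did not pass the test, and *Tyrp1*, *Tyr*, *Mlana* and *Slc45a2* are positive in SCA7 replicates 1 and 2.

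Each gene was also set against the mean log2 level of the markers of its cell of origin, library by library, and compared between genotypes by the exact two-sided permutation test over the 7 libraries (11 relations, Benjamini-Hochberg adjusted). The smallest p this design allows is 0.0286. It became 0.0349 after adjustment because most of the 11 relations shared it, and with fewer at that p the adjusted value would be larger. Relative to the pigment epithelium markers, *Rpe65* was at 2.91 ± 0.56 on the log2 scale in WT and 0.77 ± 0.21 in SCA7, a 4.4-fold lower ratio. The ratio was 8.3-fold lower for *Lrat*, 10.8-fold lower for *Rgr* and 2.57-fold lower for *Rdh5*. All 4 had p = 0.0286 (exact permutation, adjusted p = 0.0349), with no overlap between the groups. With the median of the list as the reference all 4 differences shrank on the log2 scale. They went from -2.14 to -1.60 for *Rpe65*, -3.05 to -2.52 for *Lrat*, -3.43 to -2.90 for *Rgr* and -1.36 to -0.83 for *Rdh5* (exact permutation, each adjusted p = 0.0349). With the melanin genes alone as the reference, a list added after seeing the data, the differences were -2.29, -3.20, -3.59 and -1.52 for the same 4 genes. *Rlbp1*, the other gene with a source in this epithelium, did not separate the groups on this scale (difference 0.01, exact permutation p = 1).

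*Rdh12* (ENSMUSG00000021123, chr12:79208914-79222665, + strand) encodes the retinol dehydrogenase of the photoreceptor inner segment. It had 439, 489, 485 and 421 CPM in WT and 169, 201 and 223 CPM in SCA7. The highest SCA7 library was far below the lowest WT library. The mean fell from 459 ± 33.8 to 198 ± 27.0 CPM, a log2 fold change of -1.21 (SE 0.10, 95% interval -1.43 to -1.0, adjusted p = 3.0e-06 by edgeR). *Rdh8* (ENSMUSG00000053773, chr9:20818503-20826117, + strand), the dehydrogenase gene of the outer segment, had 74.0, 80.0, 65.4 and 72.2 CPM in WT and 41.9, 50.2 and 47.4 CPM in SCA7. Its means were 72.9 ± 6.03 and 46.5 ± 4.22 CPM (log2 -0.65, SE 0.08, 95% interval -0.82 to -0.47, adjusted p = 1.0e-04 by edgeR). Both genes separated the groups without overlap, and the decrease held in each fit that left out a library.

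The sequences of the 2 downregulated photoreceptor genes before their start sites are given in the same way.
Rdh12, chr12:79208663-79208912, + strand: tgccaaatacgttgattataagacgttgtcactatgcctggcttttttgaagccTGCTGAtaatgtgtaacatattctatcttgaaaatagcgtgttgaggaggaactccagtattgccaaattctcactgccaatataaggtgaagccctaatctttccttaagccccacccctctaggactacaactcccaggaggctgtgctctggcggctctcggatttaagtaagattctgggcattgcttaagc
Rdh8, chr9:20818244-20818493, + strand: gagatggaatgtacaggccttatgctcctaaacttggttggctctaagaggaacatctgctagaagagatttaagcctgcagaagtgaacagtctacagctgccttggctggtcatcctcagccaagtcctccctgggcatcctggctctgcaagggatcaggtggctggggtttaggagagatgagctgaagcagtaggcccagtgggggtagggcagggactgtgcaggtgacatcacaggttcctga
*Rdh12* holds TGCTGA at 196 bases before the start and again past the start. *Rdh8* holds its 2 matches to TGCTGA past the start, outside the bases shown, and none before it.

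*Rdh11* (ENSMUSG00000066441, chr12:79174337-79192293, - strand) is the neighbour of *Rdh12*, 16620 bases away on the opposite strand, and its product reduces retinal in many cell types. It had 85.4, 94.2, 96.1 and 85.7 CPM in WT and 81.5, 80.9 and 93.6 CPM in SCA7. The groups overlapped, as SCA7 replicate 3 was above 2 of the WT libraries. The means were 90.3 ± 5.58 and 85.3 ± 7.21 CPM, and the log2 fold change was -0.08 with a 95% interval of -0.24 to 0.07 (SE 0.07, adjusted p = 0.43 by edgeR). A decrease of the size seen for *Rdh8* or *Rdh12* thus lies outside the interval, whereas a small one does not.

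*Abca4* (ENSMUSG00000028125, chr3:122044443-122180123, + strand), the transporter gene of the outer segment disc rim, had 1268, 1253, 1116 and 1402 CPM in WT and 961, 936 and 957 CPM in SCA7. The 3 SCA7 libraries lay close together and below every WT library. The means were 1260 ± 117 and 951 ± 13.2 CPM, and the log2 fold change of -0.40 (SE 0.08, 95% interval -0.58 to -0.23) had an adjusted p of 0.0031 by edgeR but missed the FC threshold. *Rbp3* (ENSMUSG00000041534, chr14:33954003-33964216, + strand), the gene of the retinoid carrier between the cells, was the most abundant in CPM, with 2971, 3191, 2532 and 3317 CPM in WT and 2456, 2366 and 2588 CPM in SCA7. SCA7 replicate 3 was above WT replicate 3. The log2 fold change was -0.28 (SE 0.10, 95% interval -0.49 to -0.07, adjusted p = 0.046 by edgeR), and the adjusted p ran from 0.0016 to 0.17 over the fits that left out a library, with 0.17 without SCA7 replicate 2. The 5 photoreceptor genes had a median log2 fold change of -0.40, with 2 downregulated and 3 without overlap between the groups.

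Relative to the 10 rod markers, *Rdh12* did not differ beyond the spread between mice (difference 0.04 on the log2 scale, exact permutation p = 0.571, adjusted p = 0.629). The other 4 photoreceptor genes were higher relative to these markers in every SCA7 library, by 0.61 for *Rdh8*, 0.86 for *Abca4*, 0.99 for *Rbp3* and 1.18 for *Rdh11* (each exact permutation p = 0.0286, adjusted p = 0.0349). When the summed CPM of the markers was the reference, which gives weight to the most abundant of them, *Rdh12* was higher too, by 0.47 (exact permutation, adjusted p = 0.0349), whereas with the median of the list its difference was -0.13 (adjusted p = 0.251). The ratio of *Rdh12* to *Rdh11* went from 2.34 ± 0.04 to 1.21 ± 0.14 on the log2 scale, with no overlap between the groups (exact permutation p = 0.0286). It was 1 of 7 ratios between visual cycle genes, and none passed after adjustment over the 7 (adjusted p = 0.0667 here). The ratio of *Abca4* to *Rbp3* differed by -0.12 (exact permutation p = 0.0857, adjusted p = 0.0857).

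*Rlbp1* (ENSMUSG00000039194, chr7:79374870-79387048, - strand), the retinaldehyde binding protein gene of Müller glia, had 457, 520, 570 and 490 CPM in WT and 464, 464 and 472 CPM in SCA7. The SCA7 values lay within the range of WT. The means were 509 ± 47.8 and 467 ± 4.94 CPM, with a log2 fold change of -0.13 and a 95% interval of -0.29 to 0.04 (SE 0.08, adjusted p = 0.26 by edgeR). The 10 Müller glia markers had a median log2 fold change of 0.32, and the upregulated ones were *Clu* (1.04), *Vim* (0.61) and *Apoe* (0.42). *Glul*, the glutamine synthetase gene and the most abundant of the list, was lower without overlap, with a mean of 2928 ± 314 in WT against 2287 ± 79.1 CPM in SCA7 (log2 -0.36, adjusted p = 0.013 by edgeR), short of the FC threshold. Relative to this list *Rlbp1* was lower in each SCA7 library, by 0.44 on the log2 scale (0.94 ± 0.05 against 1.38 ± 0.10, exact permutation p = 0.0286, adjusted p = 0.0349), but with the summed CPM of the list as the reference the difference was -0.20 (exact permutation, adjusted p = 0.0629).

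**Figure D4:**
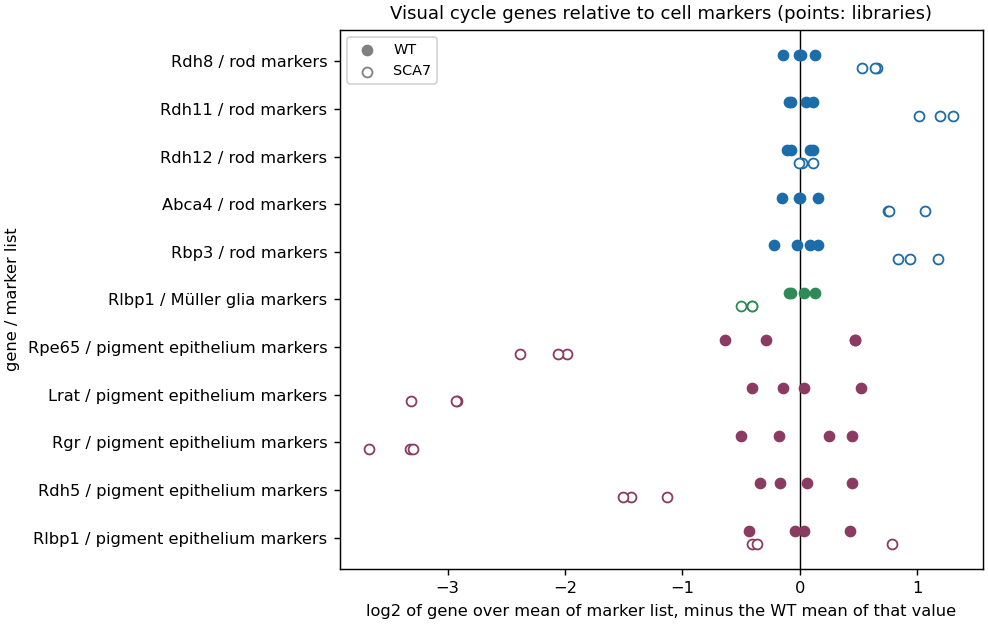
Log2 of each visual cycle gene over the mean of a marker list, less the WT mean of that value, with 1 point per library (filled, WT; open, SCA7). The pigment epithelium genes lie between -1.36 and -3.43 on average in SCA7, *Rlbp1* at -0.44 against Müller glia markers, *Rdh12* at 0.04 and the other photoreceptor genes between 0.61 and 1.18.

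Levels were compared between the genes per length, as RPK (counts after size factor scaling per kb of the median transcript length). In WT the order was *Abca4* (74764 ± 7003 RPK), *Rlbp1* (44041 ± 4116), *Rbp3* (39155 ± 4573), *Rdh12* (19187 ± 1432), *Rgr* (7651 ± 2238), *Rdh11* (3728 ± 232), *Rdh8* (3581 ± 306), *Rdh5* (1446 ± 373), *Rpe65* (910 ± 315) and *Lrat* (178 ± 60.7). The neighbours *Rdh11* and *Rdh8* differed by less than either SD, and the ranges of mean ± SD overlapped for *Rlbp1* and *Rbp3* and for *Rdh5* and *Rpe65*. *Abca4* was above 99.7% of the protein-coding genes tested and *Lrat* above 27.2%. In SCA7 *Rgr* came after *Rdh11* and *Rdh8*, at 659 ± 247 RPK against 3553 ± 316 and 2305 ± 202 RPK. The order depends on the length used. With the union of exons *Rgr* was below both of these genes already in WT, at 1024 RPK against 1805 for *Rdh11* and 3581 for *Rdh8*. By that length *Abca4* was at 7233 RPK, below *Rbp3* at 39155 RPK, since its median annotated transcript of 1163 bases is far shorter than its 12022 bases of exons.

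Of the 16 other tested genes of retinoid handling, 1 was downregulated and 0 were upregulated, against 7.91% and 7.47% of all genes tested, and their median log2 fold change was -0.02. These shares are near the background. The exception was *Ttr*, whose product transthyretin carries the complex of retinol and its binding protein and is made by the pigment epithelium in the eye. Its level was 79.9, 79.8, 40.4 and 75.8 CPM in WT and 21.4, 16.5 and 8.47 CPM in SCA7. As for the visual cycle genes of this epithelium, WT replicate 3 and SCA7 replicate 3 were the lowest of their groups. The log2 fold change was -2.17 (SE 0.43, adjusted p = 0.016 by edgeR). Without SCA7 replicate 2 it was -2.23 and the call was lost, with an adjusted p of 0.061 in a range of 0.013 to 0.061 over the fits that left out a library. *Stra6*, the retinol receptor gene, had 5.75 CPM on average in WT and 3.45 CPM in SCA7, which did not pass the test (log2 -0.76, adjusted p = 0.092 by edgeR). *Rdh10*, the retinol dehydrogenase gene of Müller glia and pigment epithelium, differed by 0.15 on the log2 scale (adjusted p = 0.11). *Rrh*, the peropsin gene, had a log2 fold change of -0.13 (adjusted p = 0.18).

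Of the 13 tested genes of retinoic acid synthesis, binding and signalling, 2 were downregulated and 1 was upregulated (7.91% and 7.47% of all genes tested), with a median log2 fold change of -0.04. With so few genes these counts are no result about the list. *Cyp26b1*, which encodes an enzyme that clears retinoic acid, fell from 2.45 ± 0.364 to 1.34 ± 0.103 CPM (log2 -0.87, adjusted p = 0.0011 by edgeR), and *Crabp1*, the gene of a retinoic acid binding protein, fell from 8.39 ± 1.41 to 5.38 ± 0.455 CPM (log2 -0.64, adjusted p = 0.0027). With both libraries numbered 3 left out, *Crabp1* was at -0.46 on the log2 scale and missed the FC threshold (adjusted p = 0.0073). *Cyp26c1*, a relative of *Cyp26b1*, was called upregulated at 0.214 ± 0.0626 and 0.406 ± 0.130 CPM (log2 0.91, adjusted p = 0.046 by edgeR). Its counts were 10 to 37 per library, and neither the DESeq2 Wald test nor limma-voom made the call. It was also lost without WT replicate 1 (adjusted p = 0.051), WT replicate 2 (0.12), WT replicate 4 (0.097), SCA7 replicate 1 (0.20) or SCA7 replicate 3 (0.082).

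For 3 of the visual cycle genes, 1 per cell of origin, the protein-coding genes with the most similar profile over the 7 libraries were sought. The search covered 13256 genes other than the 10 visual cycle genes that averaged 1 CPM or more. It used the root mean square difference of centred log2 CPM. For *Abca4* they were *Zdhhc7* (0.0338), *2410131K14Rik* (0.037) and *Tmem229b* (0.0378). For *Rlbp1* they included *Cdc42ep4* (0.0229) and *Zcchc18* (0.0248). For *Rpe65* the nearest was *Ttr* (0.137), followed by *Slc16a8* (0.409) and *Zan* (0.421), the zonadhesin gene, whose level was 4.85 ± 1.21 CPM in WT and 0.857 ± 0.127 CPM in SCA7. This measure is not scaled to how much a gene varies, so the distances cannot be compared between *Rpe65*, *Abca4* and *Rlbp1*. Of the 3 genes closest to *Rpe65*, 2 are genes of the pigment epithelium.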

How the data were processed

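Total RNA of 2 retinas per mouse was depleted of ribosomal RNA and made into stranded libraries, which were sequenced as single reads. The authors mapped the reads to mm10 with Tophat2 (2.0.14) and Bowtie2 (2.1.0) and used HTSeq (0.6.1) for the counts of Ensembl genes. The mode and strand option of HTSeq are not given in the sources used here. The deposited table holds raw counts of 52550 genes without normalization. Gene symbols, positions and lengths came from GENCODE annotation on that assembly, in which 52403 of them were found. The 10 genes and all lists were chosen with earlier results of these data known.

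Genes were kept by filterByExpr of edgeR 4.0.16 (R 4.3.3), which left 20128. TMM factors scaled the libraries, and genotypes were compared by the quasi-likelihood test (glmQLFit, robust) with no covariate. P-values were adjusted over all 20128 genes by Benjamini-Hochberg. They measure the spread between mice. Values relative to markers were compared by exact two-sided permutation tests on log2 CPM with 0.5 counts added. Named are the 10 genes, called genes of the retinoid lists, the pigment epithelium markers and, for *Abca4*, *Rlbp1* and *Rpe65*, the 3 nearest profiles. The single values of 2 genes that these lists and this rule hold are not reported here. Other genes named (*Stra6*, *Rdh10*, *Rrh*, *Bloc1s1*, *Clu*, *Vim*, *Apoe*, *Glul*) were chosen after their values were seen. Of 93 listed genes 90 were tested, the others being too low.

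Alternatives were DESeq2 1.42.0 (size factors or Wald test), limma-voom (limma 3.58.1), other filters and thresholds, the replicate number as a block, the union of exons as length, the median or the summed CPM as the marker level, and each library left out. Added after seeing the data were leaving out both libraries numbered 3 and the melanin genes as markers. The edgeR step was tested on simulated counts at these means and depths and found 157 of 197 changed genes, 140 of them among the 142 at 1 CPM or more, with 6 false calls over all genes, so that most misses were below 1 CPM.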

Additional observations from a re-analysis of the deposited data

Results flagged for a closer look

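In 42 values checked over the 4 WT libraries, 4 had a library far from the other 3, and chance alone flags about 1 in 20. *Rgr* was at 40.0 CPM in WT replicate 3 and at 80.0 to 82.7 CPM in the other WT libraries. The log2 ratio of *Rgr* to *Rlbp1* in the same library was -3.83, against -2.65 to -2.49. *Ttr* was at 40.4 CPM in WT replicate 3 and at 75.8 to 79.9 CPM in the others. *Dct* was at 24.1 CPM in WT replicate 2 and at 13.0 to 14.2 CPM in the others. Without WT replicate 3, *Rgr* and *Ttr* were still called downregulated (*Ttr* at a log2 fold change of -2.36, adjusted p = 0.013 by edgeR).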

How the results depend on the processing

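Of the 10 visual cycle genes, 5 to 6 were downregulated over the fits that left out a library, 6 with the replicate block, 8 with no FC threshold (*Abca4* and *Rbp3* were added) and 5 at an adjusted p under 0.01 (*Rpe65* was lost). The direction of the log2 fold changes of the 10 genes held in every fit. With no FC threshold 2852 of all genes were downregulated and 2853 upregulated. The labels do not say whether the replicate numbers pair the mice. Deviations from the genotype means had correlations of 0.00527, 0.204 and 0.0893 between libraries with the same number. Between libraries with unlike numbers they ran from -0.202 to 0.0597. These values do not settle whether the mice were paired. The block gave 1706 downregulated and 1629 upregulated genes over all genes.

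Of the other retinoid handling genes, 2 were downregulated with limma-voom, with the replicate block and with both libraries numbered 3 left out (*Stra6* in each case beside *Ttr*), 2 with no FC threshold, 0 at an adjusted p under 0.01 and 0 to 2 with a library left out (0 without SCA7 replicate 2, where *Ttr* lost its call). Upregulated among them were 1 with no filter, 3 with no FC threshold, 1 without both libraries numbered 3 and 0 to 1 with a library left out. Of the retinoic acid genes, 4 were downregulated with the block, 1 without both libraries numbered 3 (*Crabp1* was lost) and 2 to 4 with a library left out. Upregulated among them were 0 with the DESeq2 Wald test, limma-voom, the block, an adjusted p under 0.01 or both libraries numbered 3 left out, 2 with no filter or no FC threshold, and 0 to 2 with a library left out.

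With the summed CPM of the markers as reference, *Rdh12* relative to rod markers was at 0.47 and *Rlbp1* relative to Müller glia markers at -0.20, in place of 0.04 and -0.44. *Rdh12* turned to -0.13 with the median of the markers, and *Rlbp1* relative to pigment epithelium markers turned from 0.01 to -0.14 with the melanin genes and ran from -0.38 to 0.21 with a library left out. Neither turned value passed the test (adjusted p = 0.251 and 0.8, exact permutation). *Rlbp1* relative to pigment epithelium markers was at 0.54 with the median of the markers and 0.18 with their summed CPM (adjusted p = 0.343 and 0.6, exact permutation). With a library left out the exact test could not pass its threshold, and these values have no test. The union of exons lowered the RPK of 6 genes by over 1.5 times. With 3 to 4 mice per group, intervals such as that of *Rpe65* are wide.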
